A study of Mus musculus with 12 samples.

Results

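*Nup35*, *Gm13688*, *Nckap1*, *Dusp19*, *Frzb*, and *Dnajc10* are 6 neighboring genes on mouse chromosome 2, out of 55418 genes counted in the brainstem of neonatal mice. They were picked because *Nup35*, *Gm13688*, and *Nckap1* had some of the smallest p values in the morphine against saline comparison of female mice, and the other genes lie around them. The values in females therefore chose the genes and are given as a description, as are the sex-combined and interaction values, which contain the same females. The males were not used in the choice. RNA came from 12 outbred CFW mice at P15, after repeated injections of saline or morphine through the neonatal period, with 3 saline females, 3 morphine females, 3 saline males, and 3 morphine males. All groups share the outbred stock, so the animals of a group differ in genotype, and the dam of each mouse is in none of the labels. Morphine activates the μ-opioid receptor, and the tissue was taken hours after the last injection, during spontaneous withdrawal.

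*Nup35* encodes a nucleoporin of the inner ring of the nuclear pore complex, the channel through which proteins and RNA pass between nucleus and cytoplasm. *Nckap1* encodes a core subunit of the WAVE regulatory complex, which links the small GTPase Rac1 to branching of actin filaments and so to the growth of neurites. *Dnajc10* encodes ERdj5, a disulfide reductase of the endoplasmic reticulum that acts in the disposal of misfolded proteins, *Dusp19* encodes a dual-specificity phosphatase that acts on the JNK pathway, and *Frzb* encodes a secreted antagonist of Wnt signaling. *Gm13688* is annotated as a processed pseudogene, a reverse-transcribed copy of a messenger RNA, and its sequence resembles that of the ribosomal protein gene *Rpl15*.

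Libraries held between 27850565 and 48097947 counts on genes. The brainstem markers *Tph2*, *Fev*, *Dbh*, *Slc6a5*, *Hoxb3*, and *Hoxb5* were detected in every library, with *Slc6a5*, the glycine transporter of inhibitory neurons, between 467.6 and 636.1 CPM (counts scaled to library size after TMM normalization) and *Tph2*, which makes serotonin, between 19.7 and 41.9 CPM. One label of the extraction names spinal cords. *Hoxc8*, *Hoxc9*, *Hoxc10*, *Hoxd10*, and *Hoxa10*, which mark the posterior spinal cord, summed to at most 0.123 CPM. These markers cover the posterior cord only, and the anterior cord was not checked. The library labelled morphine male 6 went against its label, with *Xist*, expressed from the inactive X chromosome, at 380.4 CPM and *Ddx3y* of the Y chromosome at 12.8 CPM. The other males were between 0.399 and 2.65 CPM for *Xist* and between 114.9 and 199.1 CPM for *Ddx3y*, and the females between 550.4 and 978.7 CPM and between 0.058 and 0.734 CPM, so this library lay between the sexes. It stayed in its labelled group, and without it the number of genes called in males was 462 in place of 543. Saline male 3 also stood apart, and without it that number was 5341. Male log2 fold changes of the 6 genes are given with each of these libraries and without it. Other male values hold all males unless stated. No label gives a batch, and the 12 libraries were sequenced on the same lane. The RNA is from bulk tissue, so fewer cells of a type and less RNA per cell cannot be told apart.

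The 6 genes span 343441 bases of GRCm38 in the GENCODE M21 annotation. From the centromeric side they are *Dnajc10* (ENSMUSG00000027006, chromosome 2, 80315466 to 80354043, plus strand), *Frzb* (ENSMUSG00000027004, 80411970 to 80447625, minus strand), *Nckap1* (ENSMUSG00000027002, 80500512 to 80581380, minus strand), *Gm13688* (ENSMUSG00000083284, 80602733 to 80603340, plus strand), *Dusp19* (ENSMUSG00000027001, 80617045 to 80632361, plus strand), and *Nup35* (ENSMUSG00000026999, 80617236 to 80658906, plus strand). *Gm13688* is a single exon of 608 bases that lies 21352 bases from *Nckap1* and 13704 bases from *Dusp19*. The annotated bodies of *Dusp19* and *Nup35* overlap by 15126 bases on the same strand. Only 1 of the 5 *Nup35* transcripts, a retained-intron form, reaches into *Dusp19*, with 3 of its 10 exons, and the exons of both genes share 131 bases. The reference coding transcript of *Nup35* starts at 80638816, past the end of *Dusp19*. The shared bases are 3.89% of the exon bases of *Nup35* and 4.38% of those of *Dusp19*.

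**Figure D1:**
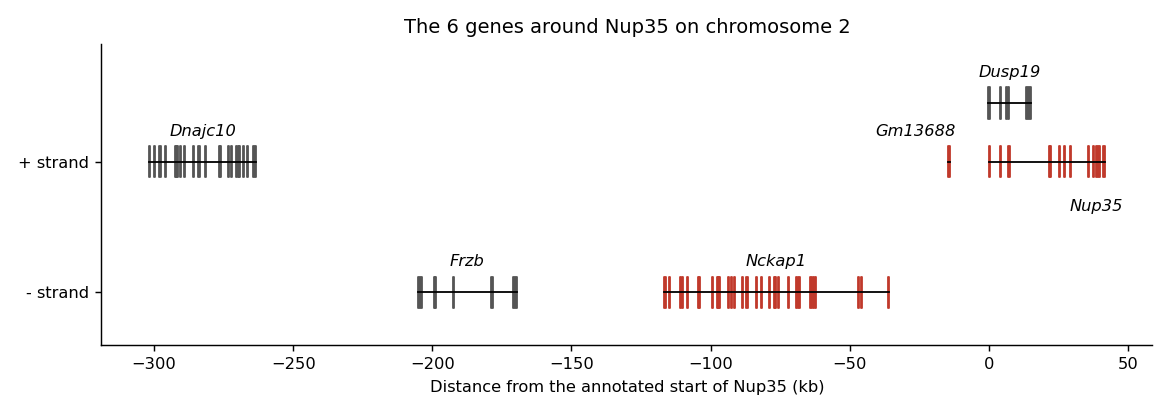
Map of the 6 genes, drawn to scale, with the distance from the annotated start of *Nup35* in kb on the x axis and the strand on the y axis. Lines are gene bodies and bars are exons, drawn in red for the genes that passed the thresholds in females and in gray for the others; *Dusp19* is drawn above *Nup35* because their bodies overlap.

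*Nup35* has a near-identical copy elsewhere in the genome, which bears on each of its counts. *Gm4353* (chromosome 7, 116082863 to 116084635, minus strand, GRCm38) has 2 exons against 9 in the reference coding transcript of *Nup35*, and the transcripts are 99.6% identical over 1547 aligned bases. End to end, they differ by 10 substitutions, and 1 of these, A467G, falls in the coding sequence. Positions are counted from 1 at the 5′ end of the *Nup35* transcript, with the base of *Nup35* first. The stretch around that base is printed because it holds the only substitution between the genes in the coding sequence. It covers positions 407 to 527, in exons 3 to 5 (chr2:80644270-80652909, plus strand, introns left out), the substituted base is at chr2:80646459, and the capital marks it.
Nup35: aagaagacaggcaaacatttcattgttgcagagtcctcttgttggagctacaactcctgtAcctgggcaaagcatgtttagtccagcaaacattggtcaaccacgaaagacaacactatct
Gm4353: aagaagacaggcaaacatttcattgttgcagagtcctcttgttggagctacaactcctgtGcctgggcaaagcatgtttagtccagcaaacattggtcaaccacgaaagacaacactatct

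Of the 1460 windows of 100 bases (the read length) in this transcript of *Nup35*, 1054 (72.2%) are found letter for letter in *Gm4353* and 406 are not. How the counting treated reads that fit both genes is not given in the sources used here. The counts of *Nup35* and *Gm4353* are therefore uncertain one by one, and they are given both apart and summed. *Nckap1*, *Dnajc10*, *Dusp19*, and *Frzb* share none of their windows with another gene.

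*Gm13688* resembles *Rpl15* (chromosome 14, 18267823 to 18271391), which encodes a protein of the large ribosomal subunit, but less closely. The 2 transcripts are 93.1% identical over 612 bases and differ by 38 substitutions, and 0 of the 509 windows of *Gm13688* are found letter for letter in another gene. In all, 30 genes align to it over at least 200 bases, 16 of them at over 90% identity. The next lines give a stretch of *Gm13688* (chr2:80602852-80602971, plus strand, positions 120 to 239 of the transcript) and the matching bases of *Rpl15*, printed because they show how often a read can tell the genes apart. Capitals mark the 9 bases that differ.
Gm13688: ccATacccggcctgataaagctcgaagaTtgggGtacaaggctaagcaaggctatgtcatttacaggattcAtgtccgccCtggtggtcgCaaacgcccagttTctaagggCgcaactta
Rpl15: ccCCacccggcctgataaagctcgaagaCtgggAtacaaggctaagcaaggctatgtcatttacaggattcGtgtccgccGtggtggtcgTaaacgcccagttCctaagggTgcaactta

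The levels of the 6 genes differed widely. Per kb of exon, averaged over the 12 mice, *Nckap1* was at 90.2 CPM per kb, *Dnajc10* at 26.4, *Dusp19* at 4.30, *Frzb* at 2.77, *Gm13688* at 0.913, and *Nup35* at 0.892. The ranges over the mice did not overlap between *Nckap1* and *Dnajc10*, nor between *Dnajc10* and *Dusp19*. *Dusp19* and *Frzb* overlapped, as did *Frzb* and *Gm13688*, and *Gm13688* and *Nup35*. The exons of *Nup35* cover 3366 bases with the retained-intron form, against 1559 bases in its reference coding transcript. Its place in this order therefore depends on the annotation, and on how reads were split with *Gm4353*. All 6 genes passed the filter on low counts in every comparison.

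*Nup35* and *Gm13688* were the most variable of the 6 genes. The coefficient of variation of CPM over the 12 mice was 62.1% for *Nup35* and 80.7% for *Gm13688*, against 10.0% for *Dnajc10*, 11.0% for *Dusp19*, 16.2% for *Nckap1*, and 21.6% for *Frzb*. Low counts vary more, and the 1417 genes within 0.5 log2 units of the level of *Nup35* had a median of 22.7%, and the 1690 genes near *Gm13688* a median of 37.2%. The values over the 12 mice contain the female difference on which *Nup35*, *Gm13688*, and *Nckap1* were chosen, so they are a description.

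In females, *Nup35* was lower in every morphine mouse than in every saline mouse. Counts were 202, 140, and 193 in saline females 4, 5, and 6, and 54, 38, and 47 in morphine females 1, 2, and 3. In CPM these were 5.87, 4.28, and 5.51 against 1.66, 1.10, and 1.74, with means of 5.22 ± 0.833 (SD, n = 3) and 1.50 ± 0.347 (SD, n = 3). Its log2 fold change (morphine over saline) was -1.81 (standard error 0.24), which puts morphine females at 0.285 of the saline level. Its unadjusted p of 1.99e-05 was the smallest of 18109 genes, and its adjusted p was 0.361 in the quasi-likelihood test of edgeR, 4.33e-07 in exactTest, and 2.20e-07 in DESeq2.

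*Gm4353*, the copy of *Nup35*, lay the other way in the same females. Its counts were 76, 95, and 93 in saline females and 121, 141, and 122 in morphine females. In CPM this was 2.59 ± 0.353 (SD, n = 3) and 4.11 ± 0.391 (SD, n = 3), with no overlap, and the log2 fold change was 0.66 (standard error 0.19). The summed counts of both genes were 278, 235, and 286 in saline females and 175, 179, and 169 in morphine females, which still did not overlap. For the summed counts it came to -0.49 (standard error 0.15, unadjusted p = 0.00867), against -1.81 for *Nup35* alone. *Nup35* took 72.7% (95% exact binomial interval 67.0 to 77.8), 59.6% (53.0 to 65.9), and 67.5% (61.7 to 72.9) of the summed counts in saline females, and 30.9% (24.1 to 38.3), 21.2% (15.5 to 28.0), and 27.8% (21.2 to 35.2) in morphine females. These intervals cover counting error only. The share of reads given to *Nup35* differed between the female groups without overlap, and its part in the difference of *Nup35* was not tested beyond the summed counts.

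*Gm13688* was also lower in every morphine female than in every saline female, at very low counts. There were 45, 36, and 32 counts in saline females and 9, 1, and 3 in morphine females. Levels were 1.11 ± 0.197 CPM (SD, n = 3) and 0.139 ± 0.126 CPM (SD, n = 3). The log2 fold change was -2.97 (standard error 0.56, unadjusted p = 0.000352, rank 3 of 18109), and leaving out 1 mouse at a time moved it between -4.00 and -2.46. The quasi-likelihood test gave it an adjusted p of 1.00, against 0.000166 in exactTest and 0.0274 in DESeq2. *Rpl15*, the gene it resembles, was at 120.6 ± 14.6 CPM in saline females and 130.5 ± 14.5 CPM in morphine females (SD, n = 3), a log2 fold change of 0.11 (0.11).

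*Nckap1* was higher in morphine females than in saline females, by a small step that was tight between mice. Saline females were at 381.3, 396.3, and 427.3 CPM and morphine females at 529.2, 517.0, and 526.0 CPM, so the groups did not overlap. The log2 fold change was 0.38 (standard error 0.08, unadjusted p = 0.00113), or 1.30-fold, and the quasi-likelihood test of edgeR gave an adjusted p of 1.00. Between 12962 and 17830 counts of *Nckap1* were held by each of these libraries, so counting error was small beside the difference.

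The other 3 genes of the stretch differed less. *Dnajc10* was at 140.1, 133.6, and 143.7 CPM in saline females and 133.3, 127.8, and 131.5 CPM in morphine females, without overlap, and its log2 fold change was -0.10 (0.08). *Frzb* lay between 8.69 and 12.8 CPM in saline females and between 7.98 and 10.0 CPM in morphine females (log2 fold change -0.26, standard error 0.17). Leaving out 1 mouse moved the value of *Frzb* between -0.38, without saline female 4 and past the thresholds, and -0.09, without saline female 5. Without saline female 4, 1482 genes of the whole table passed, against 328 with all females. *Dusp19*, whose body overlaps that of *Nup35*, lay between 12.8 and 16.2 CPM in saline females and between 11.8 and 14.1 CPM in morphine females (log2 fold change -0.15, standard error 0.14), and its value ran from -0.24, without morphine female 2, to -0.02, without saline female 6. The ranges of *Frzb* and *Dusp19* overlapped between the groups.

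In females, 3 of the 6 genes passed the thresholds for differentially expressed (DE) genes, an unadjusted p under 0.05 with an absolute log2 fold change over 0.26, of which 1 was higher and 2 were lower. Over all genes tested in females, 1.81% passed, 0.928% higher and 0.884% lower. The female groups did not overlap for 4 of the 6 genes, against 5.67% of all genes. Because the genes were chosen on this contrast, the count has no weight of its own. After adjustment, the quasi-likelihood test of edgeR called 0 genes of the whole table in females, where 343 were under 0.05 before it, and DESeq2 and exactTest each called 3.

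**Figure D2:**
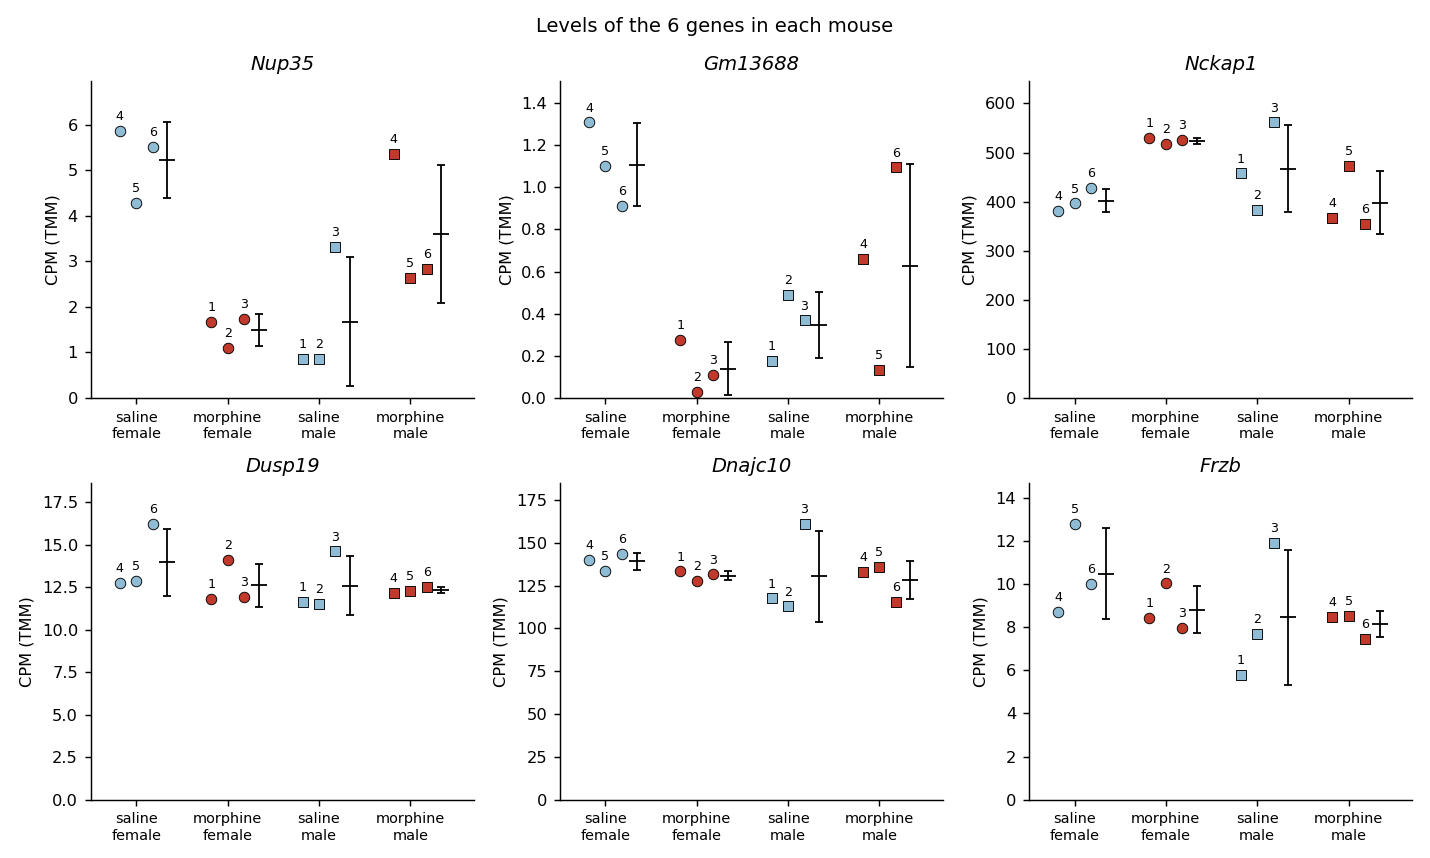
CPM after TMM normalization (y axis, from 0) of each gene in each mouse, by group on the x axis; numbers are the replicate numbers of the labels, and the bars give the mean and SD of 3 mice. *Nup35* and *Gm13688* separate saline from morphine females downward and *Nckap1* upward, while the saline and morphine males overlap for all 6 genes.

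In males, which the choice of genes did not use, none of the 6 genes passed the thresholds, where 2.99% of the 18166 genes tested did. After adjustment, 0 genes of the whole table were called in males by edgeR's quasi-likelihood test and by DESeq2 and 1 by exactTest, against 543 under 0.05 before adjustment in the first. Saline and morphine males overlapped for each of the 6 genes, where 8.86% of all genes did not overlap.

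*Nup35* did not repeat the female difference in males. Counts were 29, 40, and 108 in saline males 1, 2, and 3, and 179, 80, and 96 in morphine males 4, 5, and 6. Saline males were at 0.860, 0.854, and 3.31 CPM and morphine males at 5.36, 2.63, and 2.84 CPM, so that saline male 3 lay above 2 of the 3 morphine males. The log2 fold change was 1.09 (standard error 0.60, unadjusted p = 0.111, adjusted p = 1.00), with morphine males higher on average. Without saline male 3 it was 2.08 (unadjusted p = 0.000296, adjusted p = 0.0142, from edgeR), which passed the thresholds. In that fit 5341 genes of the whole table passed, against 543 with all males. Without morphine male 6 the value of *Nup35* was 1.23 (unadjusted p = 0.123). No filter on low counts (1.08, unadjusted p = 0.0432) and the fit of all 12 mice (1.12, unadjusted p = 0.0363) also brought it past the thresholds, while without morphine male 4 it was 0.69 and did not pass.

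*Gm4353* was at 2.64, 3.39, and 3.10 CPM in saline males and 1.89, 3.16, and 2.25 CPM in morphine males. Its log2 fold change of -0.36 (standard error 0.26, unadjusted p = 0.207) was again of the opposite sign to that of *Nup35*, and it was -0.31 without morphine male 6 and -0.32 without saline male 3. *Nup35* took 24.6%, 20.1%, and 51.7% of the summed counts of both genes in saline males and 74.0%, 45.5%, and 55.8% in morphine males. The mean shares were 32.1% ± 17.1 and 58.4% ± 14.4 (SD, n = 3), and a two-sided exact permutation test gave p = 0.20, where 3 mice against 3 cannot go below 0.10. The summed level was 4.72 ± 1.51 CPM in saline males and 6.04 ± 1.10 CPM in morphine males (SD, n = 3; exact permutation p = 0.30). Without morphine male 6, morphine males had a mean share of 59.8% and a summed level of 6.52 CPM (exact permutation p = 0.40 for each, n = 2 and 3). Without saline male 3, saline males had a mean share of 22.4% and a summed level of 3.87 CPM, and the exact permutation p was 0.20 for each, the smallest that 2 mice against 3 can give.

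**Figure D3:**
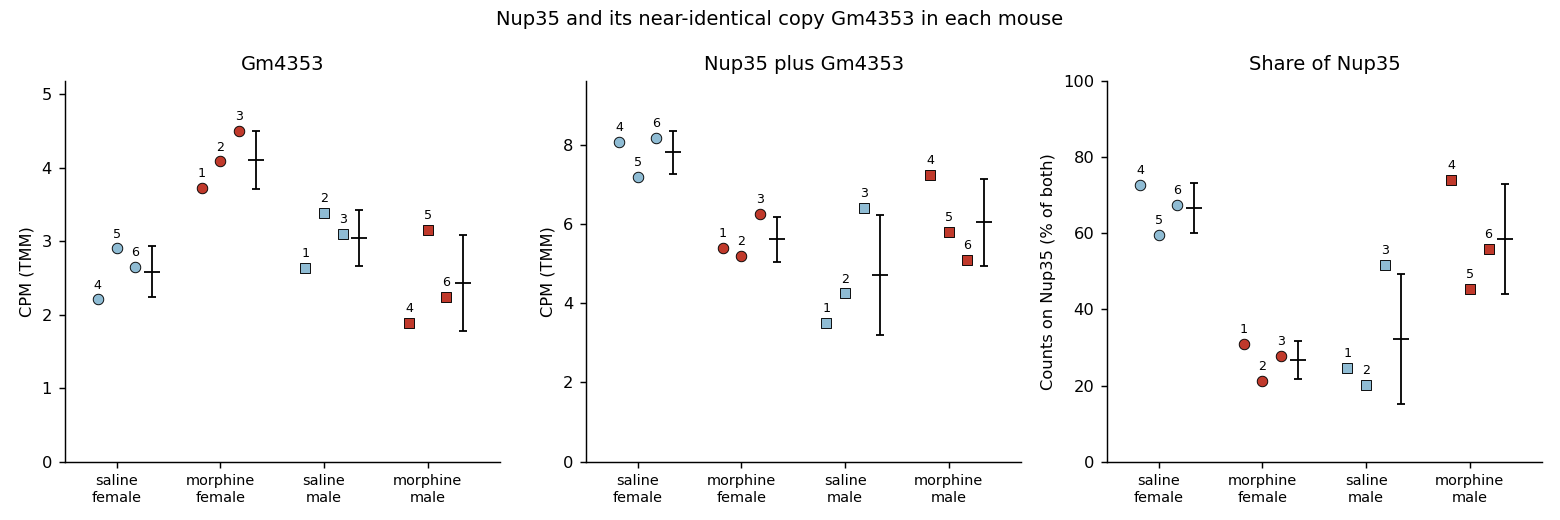
Level of *Gm4353* (left), level of *Nup35* plus *Gm4353* (middle), both in CPM after TMM normalization, and the percent of their summed counts that fell on *Nup35* (right), in each mouse by group, with the mean and SD of 3 mice. The share of *Nup35* is between 59.6% and 72.7% in saline females and between 21.2% and 30.9% in morphine females, and overlaps between the male groups.

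*Gm13688* spread widely among males. Saline males had 6, 23, and 12 counts (0.178, 0.491, and 0.368 CPM) and morphine males 22, 4, and 37 (0.659, 0.132, and 1.09 CPM). Its log2 fold change was 0.82 (standard error 0.70, unadjusted p = 0.282). The highest of these values was that of the library labelled morphine male 6, and without it the log2 fold change was 0.15 (standard error 0.74, unadjusted p = 0.850). Without saline male 3 it was 0.88 (unadjusted p = 0.267), and without morphine male 5 it was 1.34 (unadjusted p = 0.0382), past the thresholds. *Rpl15* passed them in males (log2 fold change -0.30, standard error 0.11, unadjusted p = 0.033), at 144.9, 146.1, and 129.0 CPM in saline males and 118.5, 116.0, and 113.4 CPM in morphine males. Without morphine male 6 *Rpl15* was at -0.29 (unadjusted p = 0.104) and did not pass, and without saline male 3 it was at -0.32 (unadjusted p = 0.00618).

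*Nckap1* was at 457.4, 383.6, and 561.4 CPM in saline males and at 367.5, 471.9, and 353.8 CPM in morphine males, so the groups overlapped. The log2 fold change was -0.26 (standard error 0.19, unadjusted p = 0.205), and -0.19 without morphine male 6. Without saline male 3 it was -0.08. The morphine females, at 517.0 CPM and above, were higher than every other mouse except saline male 3.

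For *Dnajc10*, *Frzb*, and *Dusp19* the log2 fold changes in males were -0.05 (standard error 0.17), -0.08 (0.28), and -0.06 (0.17). The sign of each depended on the scaling, since scaling by total counts gave 0.07, 0.04, and 0.07, and moved the median of all genes in males from -0.06 to 0.06. Saline male 3 had the highest *Dnajc10* level of the 12 mice (160.9 CPM), the highest *Nckap1* (561.4 CPM), and the highest *Frzb* and *Dusp19* among the males (11.9 and 14.6 CPM). Without it, the male log2 fold changes of *Dnajc10*, *Frzb*, and *Dusp19* were 0.16, 0.27, and 0.10, and without morphine male 6 they were 0.01, -0.03, and -0.08. None passed the thresholds in either case.

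**Figure D4:**
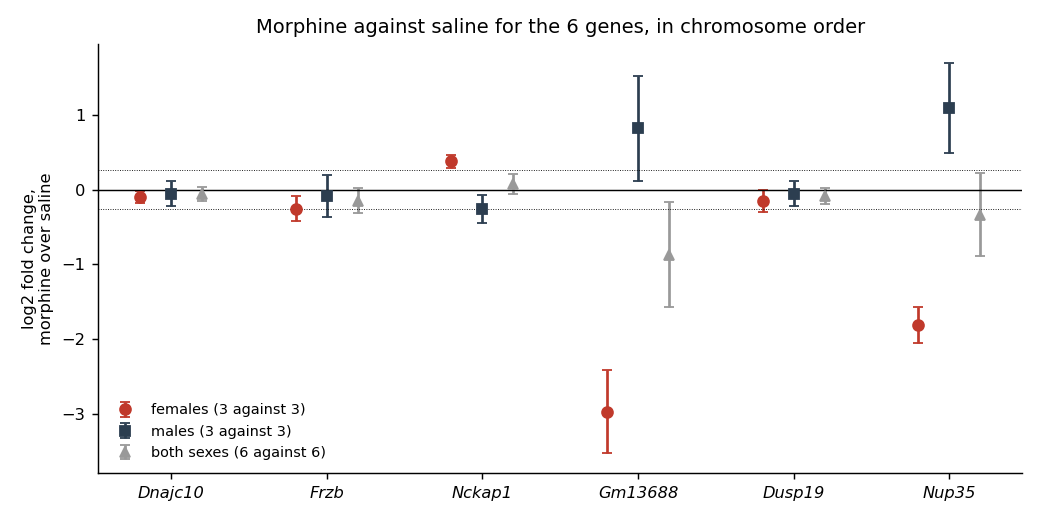
Log2 fold change of morphine over saline (y axis) with its standard error for each gene in chromosome order (x axis), in females, in males, and in both sexes with sex as a covariate, from edgeR's quasi-likelihood test. The dotted lines mark the fold-change threshold of 0.26, and the female and male values of *Nup35*, *Gm13688*, and *Nckap1* lie on opposite sides of 0.

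In both sexes together, with sex as a covariate, none of the 6 genes passed the thresholds, where 1.19% of 18608 genes did, and the groups of 6 overlapped for each, where 0.0376% of all genes did not overlap. After adjustment, 0 genes of the whole table were called by edgeR's quasi-likelihood test, DESeq2, or exactTest, against 246 under 0.05 before adjustment in the first. The log2 fold change was -0.34 (standard error 0.56) for *Nup35*, -0.87 (0.71) for *Gm13688*, and 0.08 (0.13) for *Nckap1*. Leaving out 1 mouse moved *Nup35* between -0.70, without saline male 2, and -0.02, without morphine female 2, and *Nckap1* between 0.02, without morphine female 1, and 0.16, without saline male 3. *Gm13688* was at -0.46 without morphine female 2. Without the library labelled morphine male 6, *Gm13688* was at -1.45 (standard error 0.65, unadjusted p = 0.0451) and passed the thresholds. The summed counts of *Nup35* and *Gm4353* gave -0.06 (standard error 0.19).

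The difference between the sexes, taken as the male minus the female log2 fold change, passed the same thresholds for 3 of the 6 genes, where 2.94% of 19027 genes did. This value contains the females on which the genes were chosen and is a description. It was 2.92 (standard error 0.68, unadjusted p = 0.000993) for *Nup35*, 3.80 (0.98, unadjusted p = 0.00211) for *Gm13688*, and -0.62 (0.21, unadjusted p = 0.0112) for *Nckap1*, and the adjusted p of each was 0.985 (edgeR). Without the library labelled morphine male 6 the values were 3.07, 3.15, and -0.54, and without saline male 3 they were 3.85, 3.81, and -0.49, all past the thresholds. In edgeR, leaving out saline male 3 brought the adjusted p of the interaction to 0.00695, 0.0369, and 0.0750. In that fit, 4695 genes of the whole table passed the thresholds, against 559 with all mice. For the summed counts of *Nup35* and *Gm4353* the value was 0.83 (standard error 0.32, unadjusted p = 0.0213). For the interaction, 0 genes of the whole table were called after adjustment by edgeR's quasi-likelihood test or DESeq2, against 559 under 0.05 before it in the first.

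Beyond the 6 genes, 19 further genes of the table lie within 1 Mb of *Nup35*. Of these, 4 are protein coding, 8 had no count in any library, and 4 were tested. *Itprid2*, *Pde1a*, which encodes a calmodulin-dependent phosphodiesterase of cyclic nucleotides, *Ppp1r1c*, which encodes an inhibitor of protein phosphatase 1, and the processed pseudogene *Gm4735* make up the tested genes. In females, *Ppp1r1c* and *Gm4735* passed the thresholds and both were higher in morphine mice, where 1.81% of all genes passed. Their log2 fold changes were 0.69 (standard error 0.22, unadjusted p = 0.0107) and 0.91 (0.36, unadjusted p = 0.0299) in edgeR's quasi-likelihood test. Neither was called after adjustment. Both lie near genes chosen on this contrast in the same females, so this count has no weight of its own. In males, both sexes together, and the interaction, none of the 4 genes passed, where 2.99%, 1.19%, and 2.94% of all genes did. In males without saline male 3, *Gm4735* (-1.06) and *Pde1a* (0.37) passed, as did 5341 genes of the whole table. Without morphine male 6 none of the 4 passed.

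*Ppp1r1c* (chromosome 2, 79707780 to 79818496) was at 2.21, 1.99, and 2.11 CPM in saline females and at 3.60, 4.00, and 2.62 CPM in morphine females, which did not overlap. Saline males were at 2.46, 2.01, and 4.02 CPM and morphine males at 2.72, 3.55, and 1.39 CPM, which did. *Gm4735* (chromosome 2, 80837141 to 80838442) resembles the enolase genes *Eno1* and *Eno1b*, and 83.9% of its windows of 100 bases are found letter for letter in another gene, so its counts are uncertain. It had 177, 123, and 125 counts in saline females, 427, 149, and 166 in morphine females, 650, 609, and 103 in saline males, and 192, 173, and 388 in morphine males. Morphine female 1 carried its female difference, and without that mouse the log2 fold change was 0.32 and did not pass. *Pde1a* and *Itprid2* were at 28.2 and 75.1 CPM on average, with female log2 fold changes of -0.12 (standard error 0.10) and -0.08 (0.09).

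**Figure D5:**
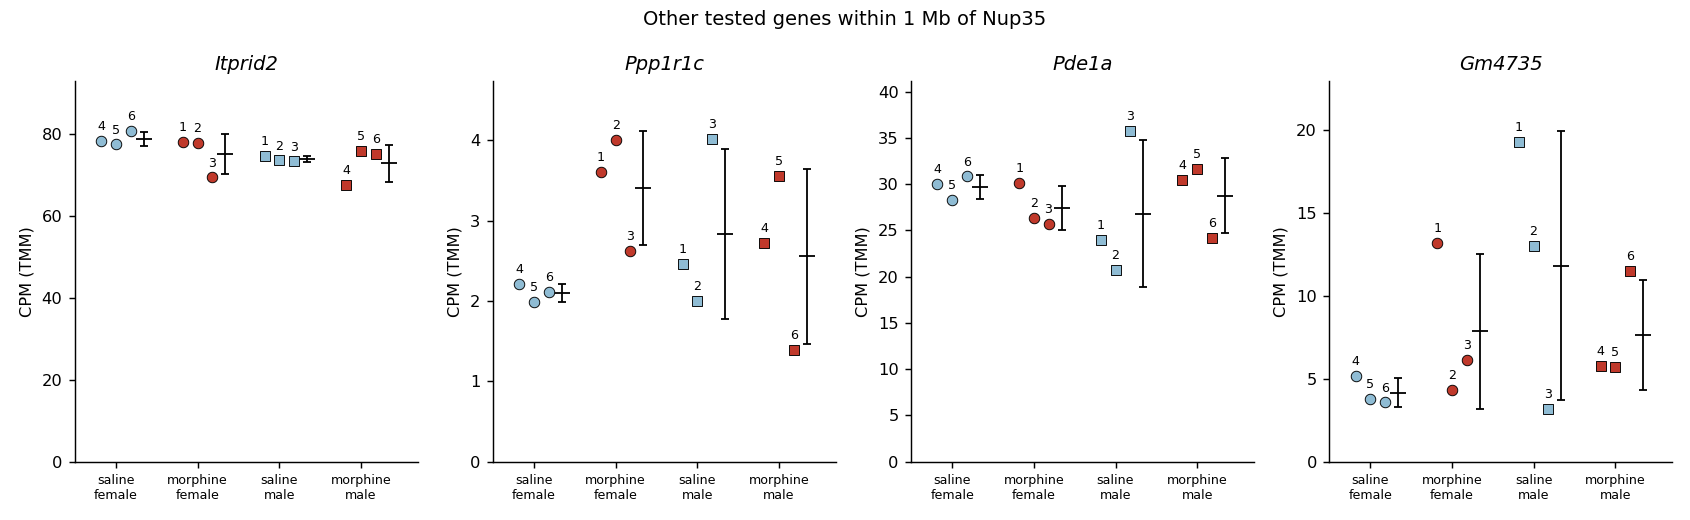
CPM after TMM normalization (y axis, from 0) of the 4 other tested genes within 1 Mb of *Nup35* in each mouse, by group on the x axis, with the mean and SD of 3 mice. *Ppp1r1c* separates saline from morphine females, and *Gm4735* ranges from 3.16 to 19.3 CPM over the 12 mice.

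Across the 12 mice, the genes most like *Nup35* in log2 CPM were *Gm14246* (Pearson's r = 0.85, Spearman's rho = 0.80), *Suv39h2* (0.85 and 0.82), *Fam78b* (0.84 and 0.87), *Marveld2* (0.84 and 0.88), and *Manba* (0.84 and 0.77), out of 18607 genes. The points share the same libraries, groups, and depth, and contain the females on which the genes were chosen, so these are descriptions. Among its neighbors, *Gm13688* came closest (r = 0.69, rank 224), then *Pde1a* (0.68, rank 265), *Dnajc10* (0.62, rank 583), *Frzb* (0.51), and *Dusp19* (0.46), while *Nckap1* (-0.37), *Gm4353* (-0.61), and *Gm4735* (-0.65) went the other way. *Dusp19*, whose body overlaps that of *Nup35*, ranked 2852.

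The genes most like *Gm13688* were *Vnn1* (r = 0.80), *Idi2* (0.79), and *D630039A03Rik* (0.76), and *Nup35* ranked 15 of the 18607. *Nckap1* (r = -0.75, rho = -0.70) ranked 18604, with *Gm4353* (-0.73, rank 18602) and *Ppp1r1c* (-0.71, rank 18599) close by, so that these were among the genes most unlike it. The ranks contain the females on which *Nup35*, *Gm13688*, and *Nckap1* were chosen, so they have no weight of their own. Within the 6 males, whose values did not enter the choice, r was -0.68 between *Nckap1* and *Gm13688*, 0.35 between *Nup35* and *Gm13688*, and -0.02 between *Nup35* and *Nckap1*. Within the 6 females the same values were -0.90, 0.96, and -0.92, which hold the difference between the groups. The values in males also hold both treatment groups. Of the males, the library labelled morphine male 6 had the lowest *Nckap1* (353.8 CPM) and the highest *Gm13688* (1.09 CPM). The male r without that library was not calculated.

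Of the 87 tested genes in 5 lists of pathways around the 6 proteins, 0 passed the thresholds in females, both sexes together, and the interaction, and 1 in males, where 1.81%, 1.19%, 2.94%, and 2.99% of all genes passed. Counts this small are no result about the lists. Of 31 other genes listed for the nuclear pore complex, 30 were tested, and none passed the thresholds in females, males, both sexes together, or the interaction. Their median log2 fold change was -0.01 in females and -0.02 in males, against -0.01 and -0.06 over all genes. *Tmem33* and *Ranbp2*, which had the highest levels of this list, were at -0.08 (standard error 0.09) and -0.06 (0.14) in females.

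Of the 11 genes of the WAVE regulatory complex and *Rac1*, which work with *Nckap1*, none passed in any of the 4 comparisons, with a median of -0.01 in females. *Cyfip2*, a direct partner of *Nckap1* in the complex, was at -0.09 (standard error 0.08) and *Rac1* at -0.01 (0.09). Of 23 genes of protein folding and degradation in the endoplasmic reticulum, the compartment of *Dnajc10*, none passed, and the chaperones *Canx* and *Calr* were at -0.09 (0.08) and -0.02 (0.14) in females. Of 9 secreted Wnt antagonists other than *Frzb*, 7 were tested and none passed, with *Dkk3* at -0.12 (0.09) and *Sfrp1* at -0.12 (0.10) in females.

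Of 16 genes of the mitogen-activated protein kinase phosphatases and the JNK pathway, 1 passed, in males only by these thresholds. This was *Dusp2*, a nuclear phosphatase, whose log2 fold change was -0.69 (standard error 0.29, unadjusted p = 0.0492) in males and -0.00 (0.26) in females, a difference that did not pass (interaction -0.67, unadjusted p = 0.089). In males it was -0.76 (unadjusted p = 0.0774) without morphine male 6, which did not pass, and -0.85 (unadjusted p = 0.0105) without saline male 3, and its interaction without the latter was -0.89 (unadjusted p = 0.0228), which passed. With saline male 3 left out, 5341 genes of the whole table passed in males and 4695 for the interaction. The kinases *Mapk9* and *Map2k4*, the most abundant of the list, were at -0.01 (0.15) and -0.04 (0.19) in males.

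Markers of other tissues varied between mice. The choroid plexus markers *Ttr*, *Kl*, and *Folr1* summed to between 7.61 and 454.3 CPM in saline females, 26.4 and 158.9 CPM in morphine females, 253.4 and 510.5 CPM in saline males, and 404.5 and 812.3 CPM in morphine males. The meningeal markers *Col1a1*, *Col1a2*, and *Dcn* summed to between 94.1 and 135.9 CPM in saline females and 60.9 and 107.5 CPM in morphine females. Markers of red blood cells (*Hba-a1*, *Hbb-bs*, and *Alas2*) ranged from 101.9 to 424.4 CPM and those of cerebellar granule cells (*Gabra6*, *Cbln3*, and *Neurod1*) from 7.40 to 53.5 CPM over the 12 mice. The summed ranges of each of these 4 lists overlapped between saline and morphine females, but single markers differed. In females, 1 of the 12 markers passed the thresholds, *Dcn*, which encodes a proteoglycan of connective tissue, at 41.8 ± 7.35 CPM in saline and 24.8 ± 6.64 CPM in morphine mice (SD, n = 3), without overlap (log2 fold change -0.76, standard error 0.19, unadjusted p = 0.00286, rank 7 of 18109). In males, 4 of the 12 passed, all higher in morphine mice, with log2 fold changes of 1.06 for *Folr1* (unadjusted p = 0.0101), 0.68 for *Kl*, 1.35 for *Gabra6*, and 1.08 for *Cbln3*. Over all genes, 1.81% passed in females and 2.99% in males. The male groups did not overlap for *Folr1*, *Gabra6*, and *Cbln3*. Of all genes, 8.86% did not overlap in males and 5.67% in females. *Folr1*, *Kl*, *Gabra6*, and *Cbln3* all passed without morphine male 6 and without saline male 3. The latter fit called 5341 genes of the whole table. *Ttr* (0.96) and *Neurod1* (0.89) also passed in males without morphine male 6. In both sexes together, *Dcn*, *Gabra6*, and *Cbln3* passed, none of them without saline male 3 and *Dcn* not without morphine male 6, and for the interaction *Kl* passed. Of all genes, 1.19% passed in both sexes together and 2.94% for the interaction. The part of these markers in the values of *Nup35*, *Gm13688*, and *Nckap1* was not tested.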

How the data were processed

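Brainstem RNA of 12 mice was sequenced as 100 base single-end reads. After trimming with Trimmomatic, the authors used STAR for alignment to mm10 and featureCounts for counting on Ensembl exons. The deposited values are raw counts per gene. Strand, overlap, and multimapping settings are not given in the sources used here.

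Groups came from the treatment and sex labels. The main test on counts was quasi-likelihood in edgeR 4.0.16 (R 4.3.3) with TMM normalization and filterByExpr, over all genes, with Benjamini-Hochberg adjustment. CPM uses TMM factors over the 12 libraries, and logs a prior count of 2. The study's dam covariate was not used here. The study assigned pups at random to saline or morphine within each litter, so mice of different treatments may be littermates. With no litter in the labels, no test here pairs them. Nothing says whether mice of a group came from separate litters, so p values measure the spread between these mice. Positions and transcripts are from GENCODE M21, matched by symbol (55341 of 55418), and copies were found with BLAST 2.17.0. On simulated counts, the fits called 90.9% of genes changed by 1 log2 unit in females and 81.4% in males. After adjustment these were 71.1% and 0%. Of unchanged genes, 4.52% and 4.78% passed the thresholds, against 1.81% and 2.99% of all genes in the real counts. The simulated counts thus did not behave like the real ones, and these shares do not give the recovery in these mice. A lack of adjusted calls in females or males therefore does not show that changes of this size are absent.

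The 6 genes and all lists were chosen with earlier results of these data known. Genes named beside the 6 were those called within 1 Mb or in a list, the 2 most abundant of a list, the 5 most like *Nup35* and 3 most like *Gm13688*, and genes that share sequence. Alternatives included exactTest, DESeq2 1.42.0, other scaling and filters, a replicate block, and leaving out each mouse. Some marker genes are not reported here.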

Additional observations from a re-analysis of the deposited data

Results flagged for a closer look

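The effect of morphine differed between males and females, by the interaction test at an unadjusted p under 0.05, for *Nup35* (2.92 on the log2 scale, males minus females), *Gm13688* (3.80), and *Nckap1* (-0.62), with edgeR's adjusted p at 0.985 for each, and the females in it chose the genes. *Dusp19* in morphine female 2, at 14.1 CPM, stood above the other 5 morphine mice, with 0.687 of the range of the 6 mice between it and the next. Of 12 such groups of 6 mice checked, this was the only 1. Chance gives about 1 in 20 for each group, so 1 among 12 has little weight. Each group holds both sexes.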

How the results depend on the processing

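In females, *Nup35*, *Gm13688*, and *Nckap1* kept their direction and passed the thresholds under every alternative that could test them, and a minimum of 10 counts in every library left *Gm13688* untested. Over these alternatives the adjusted p ranged from 5.99e-09 to 1.00 for *Nup35* and from 8.58e-06 to 1.00 for *Gm13688*, both lowest with no filter, and from 0.11 to 1.00 for *Nckap1*. For *Nup35* in males it ranged from 0.0142, without saline male 3, to 1.00. The count of the 6 genes called in males was 1 with no filter on low counts and 1 in the fit of 12 mice. The count of genes called within 1 Mb in females was 0 in the fit of 12 mice and 1 within 500 kb, and for the interaction it was 1 in DESeq2 and 1 with no filter. Leaving out 1 mouse at a time gave 0 to 1 of the 6 genes in both sexes together, 3 to 4 in females, 0 to 1 in males, and 3 to 3 for the interaction, and 1 to 2, 0 to 2, and 0 to 2 of the genes within 1 Mb in females, males, and the interaction. Among genes that did not pass, *Gm4735* in both sexes reversed to -0.043 with exactTest and -0.044 without the sex covariate, and *Dnajc10*, *Frzb*, and *Dusp19* in males reversed to 0.072, 0.042, and 0.068 with scaling by total counts. Leaving out mice reversed *Dnajc10* (-0.15 to 0.16 in males, -0.034 to 0.22 for the interaction, and -0.10 to 0.002 in both sexes), *Frzb* (-0.30 to 0.27 in males and -0.017 to 0.49 for the interaction), *Dusp19* (-0.12 to 0.10 in males and -0.039 to 0.21 for the interaction), *Gm4735* (-0.23 to 0.46 in both sexes), and *Ppp1r1c* (-0.43 to 0.19 in males). The cause was not tested.

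Over the whole table, no filter moved the number of genes called from 221 to 754 in both sexes, 328 to 1094 in females, 543 to 985 in males, and 559 to 1665 for the interaction. The fit of 12 mice gave 218 in females. Leaving out 1 mouse gave 177 to 458, 208 to 1482, 253 to 5341, and 290 to 4695, with the highest without saline male 3, except in females without saline female 4. Scaling by total counts raised the share of called genes that were higher from 51.1% to 72.7% in both sexes, 64.3% to 91.3% in males, and 54.7% to 81.2% for the interaction.

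Mice of the same replicate number did not deviate together (correlations of -0.36 to 0.18). With the replicate number as a block, 0 of the 6 genes were called in both sexes together, 0 of the genes within 1 Mb, and 182 of all genes, and *Gm13688* was at -1.19 (unadjusted p = 0.087). The planned earlier estimation of the quasi-likelihood dispersion is the default of this edgeR version, and the later one and the summed counts were added after seeing the data. They changed no call of the 6 genes. The male share of *Nup35*, the summed level, *Rpl15*, *Dusp2*, and the markers without morphine male 6 or saline male 3 were also added then.

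At 1 to 45 counts, *Gm13688* is limited by depth.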
